A study of Mus musculus with 22 samples.

Results

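Gas5, Snhg1, Snhg3, Snhg5, Snhg6, Snhg8, Snhg12, Malat1 and Neat1 are long noncoding RNAs, chosen by name as growth-arrest or small nucleolar RNA (snoRNA) host transcripts and as RNAs that stay in the nucleus. All 9 were among the 18487 genes of the expression table, and all 9 passed the filter on low values that left 17275 genes for testing. RNA from E14 cells, an established mouse embryonic stem cell (ESC) line, was sequenced after poly(A) selection in 22 libraries, 2 for each of 10 compounds that act on chromatin and 2 for a group labelled NC, the only group with no named compound. The comparison asks which transcripts differ from NC with each compound, and the labels gave neither dose nor exposure time. The labels do not say that the 2 libraries of a group came from separate cultures, so p-values measure only the spread between these libraries, which may be technical.

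The compounds were Bromosporine, which blocks bromodomains, the readers of acetylated lysine; Valproate, a histone deacetylase inhibitor; CPTH2 and Garcinol, inhibitors of histone acetyltransferases; Chaetocin, an inhibitor of histone lysine methyltransferases; and UNC0379, an inhibitor of the methyltransferase SETD8. Arginine methyltransferases of type I are the target of MS023. DZNep keeps S-adenosylhomocysteine from being broken down, which slows many methylation reactions, and IOX1 inhibits oxygenases that use 2-oxoglutarate. The label OICR gives no full compound name. All groups shared the same cell line, with no genetic change named.

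A snoRNA host gene carries snoRNAs in its introns. Splicing frees them to guide chemical modification of ribosomal RNA, and the spliced host RNA that is left is often degraded in the cytoplasm by nonsense-mediated decay, which depends on translation. Gas5 was named for its accumulation in growth-arrested cells. Malat1 and Neat1 are instead retained in the nucleus, Malat1 in nuclear speckles, where splicing factors gather, and Neat1 in paraspeckles, for which it is the scaffold.

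In GENCODE M21 (mm10), Gas5 lies at chr1:161034422-161038539 on the plus strand with 10 annotated snoRNA entries inside it (Snord80 is entered 2 times), and Snhg1 at chr19:8723475-8726443 on the plus strand with 8. Snhg12, at chr4:132308623-132311024 on the plus strand, holds 5 entries, of which 2 are Snora16a. Snhg3 (chr4:132348014-132353686, minus strand) and Snhg5 (chr9:88521050-88522929, minus strand) hold 2 each, and Snhg6 (chr1:9941959-9944118, minus strand) and Snhg8 (chr3:123507552-123508404, minus strand) hold 1 each. Malat1 (chr19:5795690-5802672, minus strand) and Neat1 (chr19:5824708-5845478, minus strand) hold 0 and are neighbours, with 22035 bases between them. Snhg12 and Snhg3 are also close, 36989 bases apart on opposite strands. The snoRNAs themselves lack a poly(A) tail, and their values were not analysed here.

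Many snoRNA hosts begin transcription in a run of pyrimidines (C or T), the feature known as a terminal oligopyrimidine start. The 60 bases around RefSeq starts (GRCm38.p6), 40 before and 20 from the start on, are shown for the 3 hosts that were lower with DZNep, for Snhg1 and Snhg12 as further hosts, and for Malat1 as the contrast. Each is written 5′ to 3′ on the strand of its gene. Capitals mark the longest pyrimidine run within 10 bases of the start and the letters TATAA where they begin 40 to 20 bases before it. The windows are chr1:161035126-161035185 (plus strand, the second of the 2 RefSeq starts) for Gas5, chr4:132353667-132353726 (minus) for Snhg3, chr9:88522878-88522937 (minus) for Snhg5, chr19:8723447-8723506 (plus) for Snhg1, chr4:132308638-132308697 (plus) for Snhg12 and chr19:5802653-5802712 (minus) for Malat1.
Gas5: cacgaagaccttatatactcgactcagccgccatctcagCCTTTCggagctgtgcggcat
Snhg3: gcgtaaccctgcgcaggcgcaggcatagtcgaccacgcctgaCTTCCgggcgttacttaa
Snhg5: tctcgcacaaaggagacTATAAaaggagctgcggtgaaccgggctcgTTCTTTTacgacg
Snhg1: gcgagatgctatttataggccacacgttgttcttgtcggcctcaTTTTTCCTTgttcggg
Snhg12: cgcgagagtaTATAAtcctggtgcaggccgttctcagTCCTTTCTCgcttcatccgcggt
Malat1: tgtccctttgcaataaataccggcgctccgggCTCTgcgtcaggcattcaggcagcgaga

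A pyrimidine run of at least 7 bases lay near 4 of the 8 RefSeq starts of 7 members (Snhg1, Snhg5, Snhg8 and Snhg12), and near 19.7% of 32841 RefSeq starts. The letters TATAA stood upstream of 3 of the 8 (Snhg5, Snhg8 and Snhg12), against 3.52% of all. The longest run was 6 bases at the second start of Gas5, 5 at Snhg3 and 4 at Malat1. A match is a description of these letters and not of a factor or of initiation. No start window was at hand for Snhg6 and Neat1.

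The deposited values are normalized read counts rounded to whole numbers, scaled so that all libraries have the same distribution. Library totals lay between 38403767 and 38419709 and the median gene was at 409 in each library, so the depth of each library is unknown. All 12 ESC markers, among them Pou5f1, Nanog and Sox2, were above 0 in every library, with a summed level of 182710 to 290407. The summed levels of other lineages were 186 to 593 for 4 of 6 primitive endoderm markers in the table, 3166 to 5827 for 5 of 6 trophoblast markers, 2407 to 6489 for 5 neuroectoderm markers, 861 to 1502 for 5 mesoderm markers and 70 to 1145 for 6 fibroblast markers, of which Dcn was at 0 in all libraries. Whether other cell types contributed to the values below was not tested.

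All 9 RNAs were well above the filter in every library. On the scale of median value per kilobase of annotated exonic length, Snhg1 had the highest level, at 2119 per kilobase, followed by Snhg5 at 1613, Malat1 at 948 and Snhg8 at 768. Snhg12, Snhg3, Snhg6 and Gas5 lay close together, between 395 and 432 per kilobase, less far apart than the libraries of any of them. Neat1 was lowest at 245 per kilobase, over an annotated length of 20771 bases. Which of its 4 annotated transcripts were captured after poly(A) selection was not tested. If shorter ones gave the reads, this level is too low. Exonic length counts every annotated isoform. Per kilobase of the longest transcript instead, Snhg1 (2306) and Snhg5 (2285) were about level. Neat1 has the same length on both scales and no other RNA has a greater length on the second, so its lowest place could not change.

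The 2 nuclear RNAs varied most between libraries. For Malat1 the highest library (IOX1 replicate 1, at 36708) was 21.4 times the lowest (Valproate replicate 2, at 1718), and for Neat1 the ratio was 7.60. Among the hosts the ratio ran from 1.86 for Snhg6 to 4.08 for Snhg5. The plot of values by library shows the spread of each RNA and how the replicates of a group separate for Malat1, Neat1 and Snhg12.

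**Figure D1:**
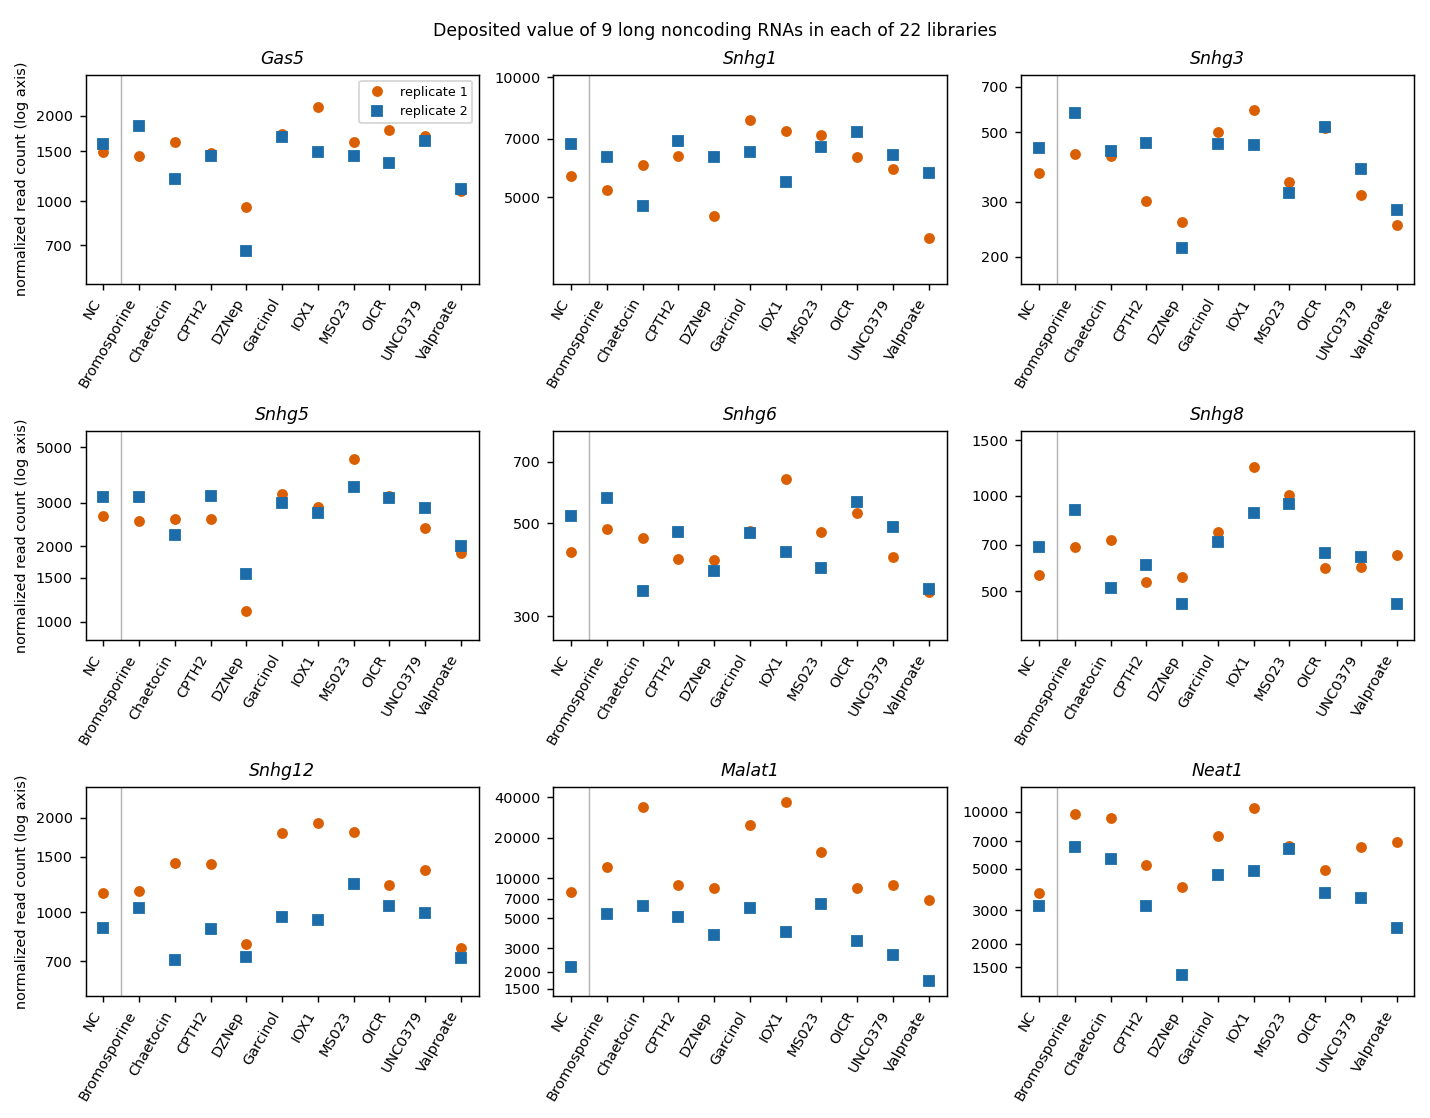
Normalized read count (log axis, its range set for each panel) of each RNA in the 22 libraries, with the NC group left of the grey line, replicate 1 as orange circles and replicate 2 as blue squares. The 2 DZNep points are the lowest of their panel for Snhg5 (1098 and 1547) and Gas5 (956 and 665), and the Malat1 circles all lie above the Malat1 squares, with 6806 as the lowest circle and 6436 as the highest square.

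Of the 90 pairs of RNA and compound, 1 was called at an adjusted p under 0.05 and a fold change over 2 (limma, Benjamini-Hochberg adjustment over all 17275 genes), namely Snhg5 with DZNep. The share of all tested genes called with DZNep was 11.4%, so 1 of 9 is near the background. With Valproate, 0 of 9 were called against 5.28% of all genes, with Bromosporine 0 against 3.34%, with MS023 0 against 0.973% and with OICR 0 against 0.388%. The remaining compounds called almost nothing in the whole table, at 0.116% with IOX1, 0.0174% with Chaetocin, 0.00579% with CPTH2, 0.00579% with Garcinol and 0% with UNC0379, and 0 of 9 here. At an unadjusted p under 0.05 the same fit gave 4 of 9 RNAs with Valproate, 3 with DZNep, 2 with MS023, 1 with IOX1 and 0 with each of the others. Over all tested genes that share was 24.1% with Valproate, 35.4% with DZNep, 15% with MS023 and 12.4% with IOX1. With the other compounds it ran from 0.944% (CPTH2) to 19% (Bromosporine).

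**Figure D2:**
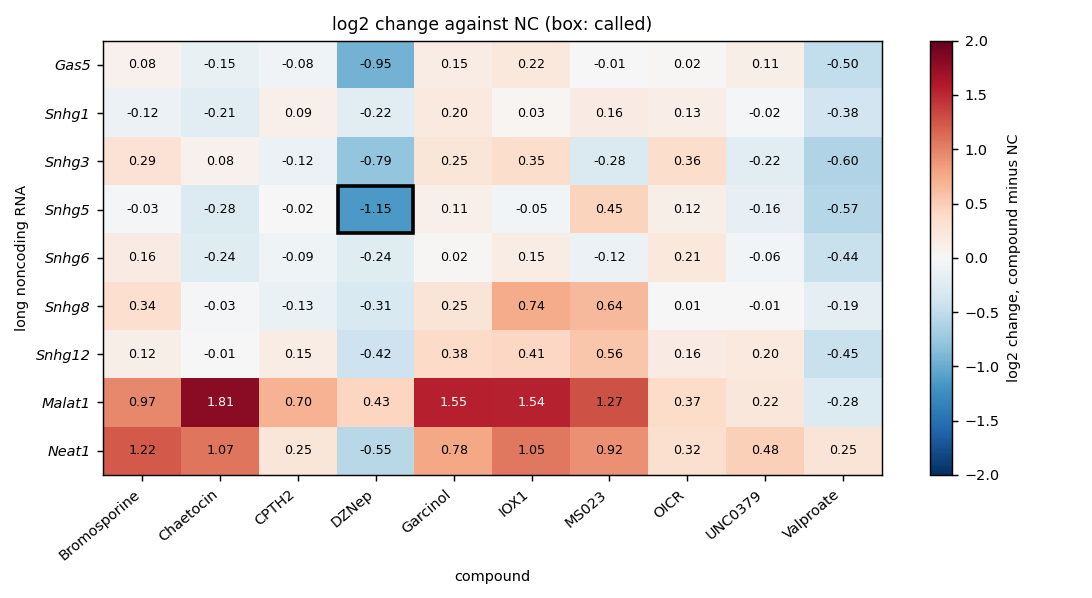
Log2 change of each RNA (rows) with each compound (columns) against NC, as the difference of the means of 2 libraries on the log2(value + 1) scale, in colour and as a number. The box marks Snhg5 with DZNep, the called pair, at -1.15. The largest values, in the Malat1 row, were not called.

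The differences that passed the test were all with DZNep and all in host RNAs. Snhg5, the host of Snord50a and Snord50b, had 2643 and 3169 normalized read counts in the NC libraries and 1098 and 1547 with DZNep. Both DZNep libraries lay below both NC libraries and below all other libraries of the series. Snhg5 fell by 1.15 on the log2 scale (SE 0.18, limma adjusted p = 0.000611). The call ended in a fit of the DZNep and NC libraries alone (adjusted p = 0.109 in limma), and without DZNep replicate 1 the log2 change was -0.90, short of 2-fold, with an adjusted p of 0.00792. In all, 6.14% of the tested genes were called lower with DZNep.

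The NC libraries held 1487 and 1598 normalized read counts of Gas5, and the DZNep libraries 956 and 665. As for Snhg5, these were the 2 lowest values among its 22 libraries. On the log2 scale Gas5 was lower by -0.95 (SE 0.21, limma adjusted p = 0.0054), and the fold stayed just under the threshold of 2. It passed that threshold without NC replicate 1 (log2 change -1.002) and without DZNep replicate 1 (-1.21). Without NC replicate 2 (-0.90) and without DZNep replicate 2 (-0.69) it did not. In a fit of the DZNep and NC libraries alone the limma adjusted p of Gas5 was 0.13.

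Snhg3, the host of Snora73a and Snora73b, had 370 and 444 in NC against 258 and 213 with DZNep, so the groups did not overlap. The log2 change was -0.79 (SE 0.21, limma adjusted p = 0.0156), again short of 2-fold. The limma adjusted p was 0.067 with adjustment over all 10 contrasts and 0.164 in a fit of the DZNep and NC libraries alone. Leaving out 1 NC or DZNep library gave log2 changes from -0.93 to -0.65. Snhg3 is the least certain of the hosts, since 79.9% of the 31-base stretches of its longest transcript also occur in transcripts of other genes, among them the antisense gene Gm17300 and its own snoRNAs, and its exons overlap those of Rcc1 on the same strand. Whether the counting used strand was not given in the sources used here. In the fit of group means, 3 of 9 RNAs were thus lower with DZNep at any fold and an adjusted p under 0.05, against 12.8% of all tested genes.

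The other hosts lay lower with DZNep by less, and none of these differences passed the test. Snhg12, Snhg8, Snhg6 and Snhg1 had log2 changes of -0.42, -0.31, -0.24 and -0.22, with limma adjusted p between 0.334 and 0.493. For Snhg1 the libraries overlapped, at 5649 and 6785 in NC and 4484 and 6290 with DZNep. All hosts were compared over the same 2 DZNep and 2 NC libraries. The share of all tested genes whose libraries do not overlap was not computed. The median log2 change of the 7 hosts was -0.42, against -0.04 over all tested genes. The 95% interval of the change with DZNep was widest among the hosts for Snhg12, from -1.28 to 0.44 on the log2 scale, and narrowest for Snhg5, from -1.54 to -0.76, as the plot of DZNep and Valproate shows.

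With Valproate the fitted change of each host RNA was below 0, as for 52% of all tested genes, and none passed the test in the fit of group means. Snhg3 was at 252 and 282, Snhg5 at 1878 and 2012 and Gas5 at 1085 and 1101 with Valproate. In each of these the 2 Valproate libraries were close to each other and below both NC libraries. How many of all tested genes separate from NC in this way was not counted for any compound. The log2 changes were -0.60 for Snhg3 (SE 0.21, limma adjusted p = 0.0917), -0.57 for Snhg5 (SE 0.18, adjusted p = 0.0633) and -0.50 for Gas5 (SE 0.21, adjusted p = 0.166). Snhg6, the host of Snord87, was at 426 and 519 in NC and 343 and 349 with Valproate (log2 change -0.44, limma adjusted p = 0.19). The median log2 change of the 7 hosts with Valproate was -0.45, against -0.02 over all tested genes. DZNep and Valproate are compared with the same 2 NC libraries, so their values are given side by side only.

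**Figure D3:**
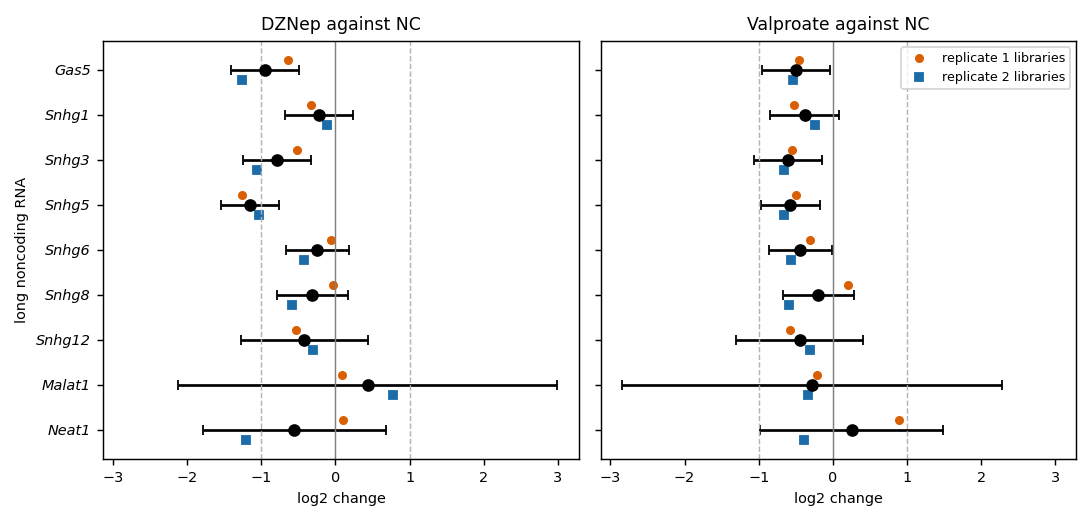
Log2 change against NC with DZNep (left) and Valproate (right) for each RNA. Black points with bars are the fitted change and its 95% interval from limma, orange circles and blue squares the change between libraries of replicate number 1 and of number 2, and dashed lines a 2-fold change. The fitted changes of the 7 hosts lie left of 0 in both panels, and the bars of Malat1 (with DZNep from -2.13 to 2.99) are the widest.

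The fitted changes of the 7 hosts were all above 0 with Garcinol (median log2 change 0.20) and OICR (0.13), some by little (Snhg6 with Garcinol 0.02, Snhg8 with OICR 0.007). Over all tested genes, 50.6% were below 0 with Garcinol and 47.8% with OICR. Within replicate number 2, Snhg1, Snhg5 and Snhg6 lay below NC with Garcinol, and Gas5, Snhg5 and Snhg8 with OICR. The other hosts lay above NC there. Fitted changes were above 0 for 6 hosts with IOX1 (median 0.22), 5 with Bromosporine (0.12) and 4 with MS023 (0.16). The share of all tested genes below 0 was 51.7%, 47.3% and 51.5% with these compounds. With IOX1 the direction depended on the replicate. Within replicate number 2, Gas5, Snhg1, Snhg5 and Snhg6 lay below NC, and Snhg3, Snhg8 and Snhg12 above it. None of these differences passed the test, and the largest were with IOX1 and MS023. Snhg8, which holds Snora24, was at 564 and 689 in NC, 1235 and 882 with IOX1 and 1008 and 942 with MS023. Both compounds lay above both NC libraries, with log2 changes of 0.74 (SE 0.22, limma adjusted p = 0.193) and 0.64 (SE 0.22, limma adjusted p = 0.168). Snhg5 with MS023, at 4477 and 3477, gave a log2 change of 0.45 (limma adjusted p = 0.262). IOX1 replicate 1 was the highest of all 22 libraries for Gas5 (2155), Snhg3 (589), Snhg6 (638), Snhg8 (1235) and Snhg12 (1924), as well as for Malat1 and Neat1, while IOX1 replicate 2 was the highest for none of the 9. Snhg1 and Snhg6 were the least variable hosts, with ranges of 3941 to 7807 and 343 to 638 over all libraries.

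An F test over all 11 groups asks whether an RNA differs among any of them. It passed an adjusted p of 0.05 (limma) for 4 of 9, Snhg5 (adjusted p = 0.00146), Snhg3 (0.00765), Gas5 (0.0173) and Snhg8 (0.024), against 29.7% of all tested genes. Snhg6, Snhg1, Snhg12, Neat1 and Malat1 did not pass in this fit of group means alone, with adjusted p of 0.217, 0.393, 0.477, 0.279 and 0.785.

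Malat1 had the largest differences from NC and the largest errors. It was at 7907 and 2177 in the NC libraries, 33822 and 6227 with Chaetocin, 36708 and 3966 with IOX1 and 24773 and 5935 with Garcinol. In each of these groups replicate 1 was several times replicate 2, so every compound group overlapped NC. The log2 change with Chaetocin was 1.81 with an SE of 1.19 (limma adjusted p = 0.832), and its 95% interval ran from -0.75 to 4.36. With Garcinol the change was 1.55 (limma adjusted p = 0.967), with IOX1 1.54 (adjusted p = 0.589), with MS023 1.27 (adjusted p = 0.697) and with Bromosporine 0.97 (adjusted p = 0.746).

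Compared between libraries of the same replicate number, Malat1 was above NC in both numbers with 9 of the 10 compounds and below NC in both with Valproate (6806 and 1718). The change within number 1 and within number 2 was 2.10 and 1.52 on the log2 scale with Chaetocin, 1.65 and 1.45 with Garcinol, and 0.98 and 1.56 with MS023. With IOX1 it was 2.21 and 0.87. All of these use the same 2 NC libraries, which ranked 2 from the lowest of 11 in each replicate number, and no test is attached to the count.

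Neat1 was at 3707 and 3159 in NC, 9764 and 6517 with Bromosporine, 9242 and 5620 with Chaetocin, 10421 and 4833 with IOX1 and 6606 and 6341 with MS023. In these groups, and with Garcinol at 7425 and 4631, both libraries lay above both NC libraries. The change with Garcinol was 0.78 on the log2 scale (limma adjusted p = 0.967). How many of all tested genes separate in this way was not counted. The log2 change with Bromosporine was 1.22 (SE 0.57, limma adjusted p = 0.271), with a 95% interval from -0.02 to 2.46. Within replicate number 1 and within number 2 that change was 1.40 and 1.04. On the same scale, in the fit of group means, the change with Chaetocin was 1.07 (limma adjusted p = 0.803), with IOX1 1.05 (adjusted p = 0.484) and with MS023 0.92 (adjusted p = 0.505). With DZNep the libraries split, at 3970 and 1371, the second being the lowest of all 22, and the log2 change of -0.55 had a limma adjusted p of 0.524. Against the mean of the other groups in place of NC, Neat1 with DZNep was called lower (log2 change -1.19, limma adjusted p = 0.0456).

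Both nuclear RNAs and Snhg12 differed by replicate number in every group. Over the 11 groups, Malat1 had a lowest, median and highest value of 6806, 8858 and 36708 in replicate 1 and of 1718, 3966 and 6436 in replicate 2. The ranges did not overlap, and the first library was the higher in 11 of 11 groups. The difference, replicate 2 minus 1, was -1.73 on the log2 scale (SE 0.19, limma adjusted p = 2.43e-05), a 3.32-fold higher level in replicate 1. It placed Malat1 at the 1.24 percentile of all tested genes.

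Neat1 had a lowest, median and highest value of 3707, 6606 and 10421 in replicate 1 and of 1371, 3692 and 6517 in replicate 2, and replicate 1 was higher in 11 of 11 groups, by the least with MS023. The log2 difference was -0.77 (SE 0.13, limma adjusted p = 0.000349). Among the hosts, Snhg12 alone passed, also higher in replicate 1 in 11 of 11 groups, with a log2 difference of -0.51 (SE 0.10, limma adjusted p = 0.000741). The other 6 hosts had log2 differences between -0.16 for Gas5 (limma adjusted p = 0.115) and 0.09 for Snhg5 (adjusted p = 0.348).

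In the whole table, 22.8% of the genes were lower and 29.9% higher in replicate 2 by the same test, so 3 of 9 lower is not far from the background. The labels do not say what the numbers stand for. What set them apart was not tested.

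**Figure D4:**
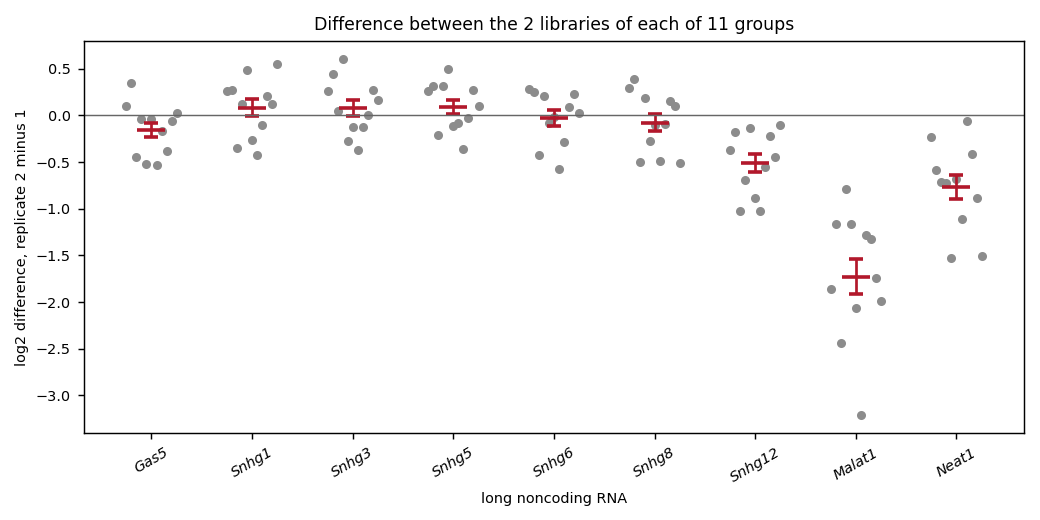
Difference on the log2 scale between replicate 2 and replicate 1 in each of the 11 groups (grey points), with the limma estimate and its SE in red. All points lie below 0 for Malat1, Neat1 and Snhg12, and on both sides of 0 for the other 6 RNAs.

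Across the 22 libraries, after subtracting the mean of each replicate number, the host RNAs varied together to differing degrees. Pearson's r was 0.865 for Snhg1 and Snhg12, 0.823 for Gas5 and Snhg3, 0.802 for Gas5 and Snhg5, and 0.433 for Snhg1 and Snhg8. Malat1 and Neat1 had an r of 0.628, which was 0.723 among the 11 libraries of number 1 and 0.586 among those of number 2. Snhg1 and Neat1 had an r of 0.07. These libraries share groups and a common scaling, and the values are a description with no test.

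The genes most like each RNA by this measure, among 14311 genes, were Exosc8 (r = 0.914), a subunit of the RNA exosome, and Rnf5 (0.908) for Gas5; Msmo1 (0.930), an enzyme of cholesterol synthesis, and Cd59b (0.920) for Snhg5; and Rab26os (0.923) and Slc25a35 (0.897) for Snhg3. Snhg12 was most like Epb41l4aos (0.885), itself a snoRNA host, and Cd59b (0.868). For Snhg1 they were Mocs2 (0.818) and Mrps14 (0.808), for Snhg6 Gm12245 (0.872) and BC051226 (0.860), and for Snhg8 Snrnp48 (0.894) and Tmem256 (0.852). Neat1 was most like Zfp948 (0.921) and Pnisr (0.917), a nuclear speckle protein, and Malat1 like Wiz (0.814) and Gm9873 (0.814).

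Of 14 other noncoding snoRNA hosts listed, 10 were tested. With DZNep, Snhg4 fell from 983 and 1283 to 588 and 526 (log2 change -1.01, limma adjusted p = 0.00093), and Snhg15 rose from 520 and 561 to 1040 and 1159 (1.02, limma adjusted p = 0.00268), so called hosts moved in both directions, and 2 of 10 called compares with 11.4% of all tested genes. The median log2 change of the 10 was -0.49. With MS023, Snhg11 rose from 668 and 725 to 1455 and 1867 (1.24, limma adjusted p = 0.0434). With the other compounds 0 of 10 were called, and the Valproate median of 0.09 lay on the other side of 0 from that of the 7 hosts above. In replicate 2, 5 of 10 were lower, against 22.8% of all tested genes, among them Snhg14 (-1.16) and Snhg20 (-0.70).

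Few of the listed proteins that act on these RNAs were called. Of 15 factors of nonsense-mediated decay, such as Upf1 and Smg1, 0 were called with any compound, and their median log2 change with DZNep was 0.28. Of 15 tested proteins of snoRNA particles, 1 was called with DZNep, a share below the 11.4% of all genes, Nop10, a core protein of H/ACA particles, which rose from 1890 and 2479 to 4302 and 4378 (1.00, limma adjusted p = 0.000855), and the list's median was 0.51. Of 16 translation genes known for a terminal oligopyrimidine start, such as Eef2 and Tpt1, 0 were called with any compound, with a median of -0.03 with DZNep and 0.07 with Valproate. Eef1a1 and Rack1 in this list stood at 221616, the largest deposited value, in every library, so no change could show for them.

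Of 14 paraspeckle proteins, 2 were called with DZNep, a share near the 11.4% of all tested genes called with it in either direction, and both rose. Rbm14, which is needed for paraspeckles to form, went from 4216 and 5269 to 12808 and 16767 (1.64, limma adjusted p = 0.000744), and Pspc1, a core paraspeckle protein, from 2647 and 4835 to 6297 and 10510 (1.19, limma adjusted p = 0.0237). Both DZNep libraries lay above both NC libraries for each gene, while the median of the list was 0.00. Of 14 nuclear speckle proteins, 0 were called with any compound.

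Called genes among other long noncoding RNAs were imprinted or X-linked transcripts and Lncenc1. Much of the list was made up of imprinted or X-linked transcripts, so this follows in part from how it was chosen. Of 18 tested, 3 fell with DZNep, against 6.14% of all tested genes called lower, namely Rian, an imprinted snoRNA host, from 26697 and 15357 to 4680 and 2540 (-2.55, limma adjusted p = 0.0082), Firre, a nuclear RNA of the X chromosome, from 5699 and 3338 to 1910 and 1088 (-1.60, limma adjusted p = 0.0496), and Lncenc1 from 8477 and 6705 to 4944 and 2843 (-1.01, limma adjusted p = 0.00562). With Valproate, which called 5.28% of all genes, Mirg (-1.16, limma adjusted p = 0.026) and Tsix, the antisense partner of Xist (-1.19, adjusted p = 0.0292), fell, and with Bromosporine Nespas rose (1.43, limma adjusted p = 0.0385). By replicate number, 10 of the 18 were lower and 2 higher in replicate 2, against 22.8% and 29.9% of all tested genes, with Meg3 (-1.39, limma adjusted p = 1.95e-06) and Rian (-0.90, limma adjusted p = 1.54e-05) among the lower.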

How the data were processed

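The deposited values are scores: normalized read counts per gene that the authors rounded to whole numbers. According to the study's methods, which do not mention the compounds, reads were aligned with Bowtie2 (2.2.5 per the submitters' processing notes, genome mm10), counted with RSEM and normalized with EDASeq at its full setting. Such scaling equalizes distributions and hides depth. In R 4.3.3, limma 3.58.1 was fitted to log2(value + 1) of genes with at least 10 in at least 2 libraries, with 11 group means over all 22 libraries (11 residual degrees of freedom) and a variance trend. P-values are two-sided and were adjusted within each contrast by the Benjamini-Hochberg method. The replicate number was tested as an added term. The fit was tested on simulated data. The 9 RNAs and the gene lists were chosen with earlier results of these data known. Named list genes are the called ones of largest change, at most 3 per list and compound, and the 2 genes most correlated with each RNA, whose largest group mean was at least 100. Genes given for the replicate number were chosen after their values were seen, as were the motifs and windows. Groups and numbers came from the labels. All 22 columns matched a sample, and a table of the authors' group means was not used. Alternatives are given in the closing section. Of the table's symbols, 17946 of 18487 were found in GENCODE M21. Python 3.11.15 with pandas 2.3.3 and matplotlib 3.10.9 was used for positions and plots.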

Additional observations from a re-analysis of the deposited data

How the results depend on the processing

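The call of Snhg5 with DZNep was kept with a pseudocount of 10, with no filter on low values, with median-ratio rescaling and with adjustment over all 10 contrasts. A fit of only a compound's libraries and NC called 0 of the 90 pairs, 0 of them with DZNep. With the mean of the other groups as reference, 2 were called, both with DZNep (Snhg5 and Neat1). Of the 90 fitted changes, 20 reversed sign without NC replicate 2 and 11 without NC replicate 1. Leaving out each library in turn gave 1 to 2 calls against NC, with 1 to 2 for DZNep. With the replicate number as a block, 2 pairs were called, the second being Neat1 with Bromosporine (1 of 9, limma adjusted p = 0.015). The share of all tested genes called was then 6.88% with Bromosporine and 15.1% with DZNep. In the F test with the block, 7 in place of 4 RNAs passed, against 65.9% of all tested genes. Malat1 was then at an adjusted p of 0.0101, Neat1 at 0.00435 and Snhg12 at 0.0238 (limma). With Valproate, Snhg5 and Snhg3 then had adjusted p of 0.0275 and 0.0428, short of 2-fold. The SE of a Malat1 change went from 1.19 to 0.44 with the block, at the same 2 libraries per group. The labels do not say that a number marks a shared batch, and the fit without the block was kept because the rule for pairing asked for a correlation over 0.1 in every pair of groups. Same-numbered libraries deviated together with correlations of 0.0535 to 0.298, over 0.1 in 51 of 55 pairs of groups, and for 20 of 22 libraries the best match in another group had the same number, a hint from the data that numbers mark something shared. The count of 3 RNAs that differed between replicate numbers was 3 under each alternative run for it, except that it was 4 without Bromosporine replicate 1 and without Bromosporine replicate 2. The depth of each library is unknown.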
